A study of Homo sapiens with 8 samples.

Results

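The EGFR family was described here through 10 genes. These are the 4 receptors EGFR, ERBB2, ERBB3 and ERBB4, the 5 ligands AREG, EREG, HBEGF, TGFA and BTC, and ERRFI1, an inhibitor of the receptors. The members were chosen by gene symbol, and 10 of 10 were found among the 58828 genes listed. They were chosen with results of these libraries known, among them the lower EGFR count of 22RV1 cells that carry PAGE4, so PAGE4 values in 22RV1 cells are given as a description with no test. For the same reason, counts and medians of the members set beside all genes are descriptions and no test of the family. RNA was sequenced from 22RV1 and DU145 cells, 2 long-established lines of human prostate cancer. Both lines had been infected with a lentivirus that carried either an empty vector or doxycycline-inducible PAGE4, selected with puromycin, and given doxycycline, vector cells included. Cells of each construct were treated with PBS or with 200 mM H2O2 for 12 h, the dose that the labels and methods give, although lower doses are named for other experiments of the study, so the dose behind the H2O2 values is uncertain. This gave 8 conditions with 1 library each, and the PBS and H2O2 libraries of a construct share 1 engineered cell population.

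The receptors of this family are tyrosine kinases of the cell surface that pair with each other after a ligand has bound. EGFR binds AREG, EREG, HBEGF, TGFA and BTC, whereas ERBB2 has no known ligand of its own and ERBB3 has a weak kinase, so both act mainly as partners. The ligands are made as membrane proteins and are released by metalloproteases such as ADAM17. ERRFI1, also called MIG6, binds the kinase domain of EGFR and blocks it, and its transcription rises after EGFR signalling and cell stress. In the prostate, the family is known as a growth pathway of the epithelium.

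Libraries held between 25482984 and 43310401 counts in total (median 29843277). PAGE4 was at 0.0401 CPM (read counts scaled to the size of the library) or less in the 4 vector libraries and between 36.9 and 57.0 CPM in the 4 PAGE4 libraries. The 5 luminal markers of 22RV1 cells used here (KLK2, KLK3, TMPRSS2, FOLH1 and HOXB13) summed to between 158.5 and 410.1 CPM in 22RV1 libraries and to between 0.120 and 0.292 CPM in DU145 libraries, and all 5 were higher in every 22RV1 library. Of the 5 DU145 markers, VIM, CAV1 and AXL were higher in every DU145 library, while CD44 and LGALS1 overlapped between the lines. Levels below are CPM after trimmed-mean (TMM) scaling. Fold changes are log2 values with a standard error (SE) derived from edgeR's quasi-likelihood test. This SE is the absolute log2 change divided by the square root of the test's F statistic. The H2O2 test treats the vector and PAGE4 pairs of a line as repeats. The test between the lines treats the pairs of libraries with the same construct and treatment as repeats. Its PBS and H2O2 pairs share engineered populations, and its spread includes any line difference that changes with H2O2 or construct. The PAGE4 test treats the PBS and H2O2 pairs of a line as repeats, although these come from the same engineered populations. All p-values are adjusted over the 22418 genes tested, which include all 10 members. Nothing states that the libraries came from separate cultures beyond the engineered populations, so these p-values measure only the spread between the libraries. In RNA from a whole culture, a change in fewer cells and a change in the RNA of every cell cannot be told apart.

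The genes of 3 ligands lie together on chromosome 4 of GRCh38, in the order EREG (74365145 to 74388749, plus strand), AREG (74445136 to 74455005, plus strand) and BTC (74744759 to 74794523, minus strand). EREG and AREG are 56386 bases apart, and AREG and BTC are 289753 bases apart. The 250 bases before a transcription start of the 3 ligands with the widest changes and of EGFR are printed here from RefSeq (GRCh38.p14), 5′ to 3′ on the strand of the gene. Capitals mark the matches to a CRE (TGACGTCA), a TATA box (TATAAA) or a GC box (GGGCGG), searched on both strands together with AP-1 (TGANTCA) and the antioxidant response element (TGACNNNGC). The windows are AREG chr4:74444886-74445135, EREG chr4:74364895-74365144, HBEGF chr5:140346604-140346853 on the minus strand, and EGFR chr7:55018767-55019016.
AREG: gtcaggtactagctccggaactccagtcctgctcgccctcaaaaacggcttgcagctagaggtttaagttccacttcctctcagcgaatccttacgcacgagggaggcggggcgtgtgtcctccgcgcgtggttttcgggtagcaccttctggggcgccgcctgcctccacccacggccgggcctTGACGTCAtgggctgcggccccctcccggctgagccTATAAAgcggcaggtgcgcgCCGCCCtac
EREG: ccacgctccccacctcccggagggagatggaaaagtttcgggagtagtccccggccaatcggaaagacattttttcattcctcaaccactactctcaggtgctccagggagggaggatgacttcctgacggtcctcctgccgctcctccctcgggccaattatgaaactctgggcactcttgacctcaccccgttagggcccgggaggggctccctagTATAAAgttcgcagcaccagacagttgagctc
HBEGF: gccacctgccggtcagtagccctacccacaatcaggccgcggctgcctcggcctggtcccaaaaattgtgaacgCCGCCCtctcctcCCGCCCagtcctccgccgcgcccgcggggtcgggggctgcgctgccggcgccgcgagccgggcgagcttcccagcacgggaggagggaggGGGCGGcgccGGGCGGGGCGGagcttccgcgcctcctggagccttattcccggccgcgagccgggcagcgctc
EGFR: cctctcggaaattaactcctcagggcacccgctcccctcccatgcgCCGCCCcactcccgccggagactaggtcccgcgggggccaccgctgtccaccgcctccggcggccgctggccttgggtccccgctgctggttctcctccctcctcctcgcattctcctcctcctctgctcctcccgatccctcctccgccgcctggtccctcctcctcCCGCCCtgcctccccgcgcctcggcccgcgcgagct
The AREG window holds a CRE at 65 to 58 bases before the start, a TATA box at 29 to 24 bases and a GC box. The EREG window holds a TATA box at 32 to 27 bases and no CRE, and has a GC content of 58.0%. The HBEGF and EGFR windows have a GC content of 76.4% and 73.6%, with 5 GC boxes in HBEGF, 2 of which overlap by 1 base, and 2 in EGFR. Among 35116 RefSeq promoter windows of this length, 1.65% hold the CRE, 10.7% the TATA box, 42.6% the GC box, 6.57% AP-1 and 10.9% the antioxidant response element. None of the 4 printed windows holds these AP-1 or antioxidant response letters. RefSeq lists another EGFR start inside the gene, whose window (chr7:55109589-55109838, not printed) holds 2 AP-1 matches, at 232 to 226 and 136 to 130 bases before that start, and 2 TATA boxes. All matches are descriptions of the sequence only.

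RNA levels of 8 of the 10 members differed between the cell lines, where 31.9% of all genes tested were higher and 28.5% were lower in 22RV1 cells. 22RV1 cells had more ERBB3 and ERBB4 RNA, and DU145 cells had more EGFR, AREG, EREG, HBEGF, TGFA and ERRFI1 RNA. EREG, the ligand epiregulin, was read 5 to 16 times per library in 22RV1 cells and 3027 to 5887 times in DU145 cells. AREG, the ligand amphiregulin, was at 1.84 CPM in 22RV1 vector cells with PBS, 10.99 with H2O2, 0.574 in PAGE4 cells with PBS and 6.32 with H2O2, against 165, 188, 179 and 189.7 CPM in the same conditions of DU145 cells. The lines did not overlap for either ligand, with log2 differences (22RV1 minus DU145) of -9.23 (SE 0.183, adjusted p = 4.91e-08) for EREG and -5.71 (SE 0.622, adjusted p = 0.000103) for AREG. TGFA, a ligand of EGFR alone, was between 2.87 and 7.02 CPM in 22RV1 cells and between 16.9 and 33.7 CPM in DU145 cells, a log2 difference of -2.41 (SE 0.197, adjusted p = 2.18e-05).

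EGFR itself was at 200.5, 123, 45.6 and 41.1 CPM in 22RV1 cells (vector with PBS, vector with H2O2, PAGE4 with PBS and PAGE4 with H2O2, the order used from here on) and at 299.9, 399.5, 304 and 387 CPM in DU145 cells. Every DU145 library was above every 22RV1 library, with the narrowest gap to 22RV1 vector cells, and the log2 difference was -2.07 (SE 0.396, adjusted p = 0.00225). Pair by pair it was -0.58 and -1.70 in vector cells (PBS and H2O2) and -2.74 and -3.23 in PAGE4 cells. The fitted EGFR value and its p-value therefore draw on the low 22RV1 PAGE4 values known when the members were chosen, and are not independent of that choice. ERBB3 ran the other way, at 239, 187, 311 and 257 CPM in 22RV1 cells and 90.6, 46.0, 81.4 and 36.7 CPM in DU145 cells (log2 difference 2.04, SE 0.206, adjusted p = 6.69e-05). ERBB4, a receptor of neuregulins, was read 225 to 1053 times per library in 22RV1 cells and 5 to 25 times in DU145 cells (log2 difference 4.84, SE 0.402, adjusted p = 2.35e-05). ERBB2 and BTC did not pass the test between the lines, with adjusted p = 0.656 and 0.983. In all, 2 of 10 members were higher and 6 of 10 were lower in 22RV1 cells, against 31.9% and 28.5% of all genes tested. The median log2 difference was -1.36 over the members and 0.08 over all genes, which is a description of members chosen with results known. HBEGF (-1.09, SE 0.290, adjusted p = 0.0117) was called although its libraries overlapped between the lines, and ERRFI1 differed by -1.64 (SE 0.189, adjusted p = 0.000140).

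**Figure D1:**
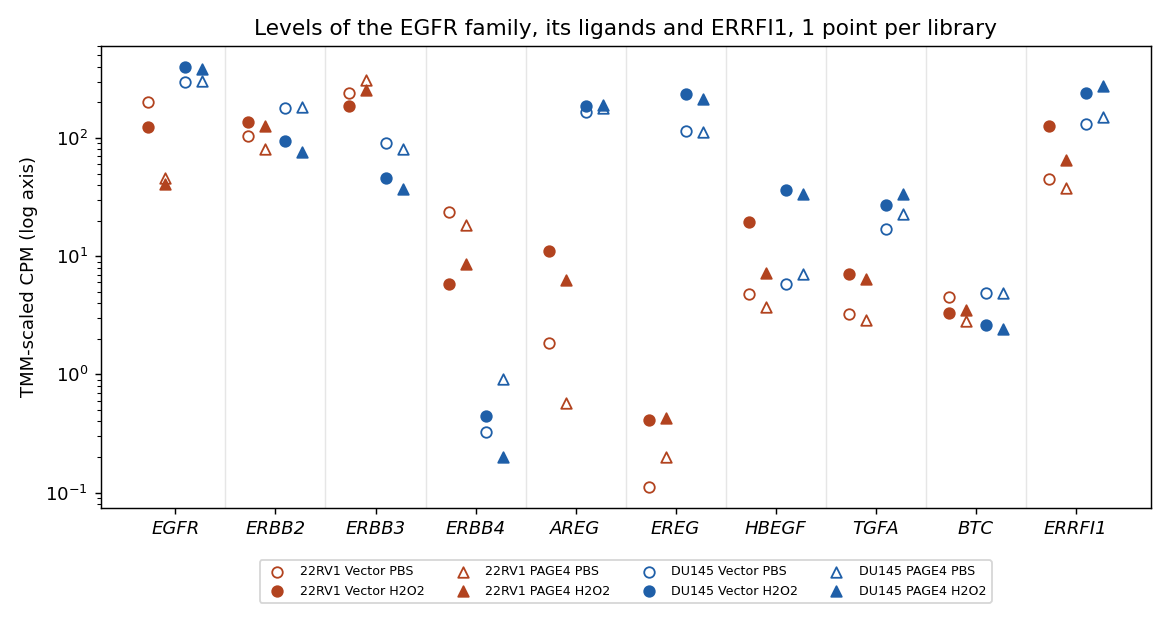
Level of each of the 10 genes in each of the 8 libraries, in TMM-scaled CPM on a log axis, with 22RV1 in orange, DU145 in blue, circles for vector, triangles for PAGE4, open symbols for PBS and filled symbols for H2O2. The lines are farthest apart for EREG, AREG and ERBB4, and the 22RV1 PAGE4 libraries stand apart for EGFR at 45.6 and 41.1 CPM.

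Set per kilobase of annotated exon, ERBB3 had the highest mean in 22RV1 cells and AREG in DU145 cells. This length merges all annotated exons of a gene, whether or not these cells use them. The order of genes with close values therefore depends on that choice. In 22RV1 vector cells with H2O2, ERRFI1 was above ERBB3, at 30.4 against 16.0 CPM per kb. In 22RV1 cells, the level was 21.2 ± 4.37 CPM per kb for ERBB3 (SD over the 4 conditions of the line, n = 4 libraries), 16.5 ± 9.72 for ERRFI1, 10.9 ± 2.43 for ERBB2 and 6.44 ± 4.73 for EGFR. AREG, HBEGF, BTC, ERBB4 and TGFA followed between 3.003 and 0.998 CPM per kb, and no neighbours in this order differed by more than the sum of their SDs, except that EREG was last at 0.0502 ± 0.0273. In DU145 cells, AREG was at 110.0 ± 6.82 CPM per kb, above ERRFI1 at 47.8 ± 16.4 by more than both SDs together. EREG at 29.6 ± 11.4 and EGFR at 21.8 ± 3.32 did not differ in that sense. ERBB2 (12.9 ± 5.36) was below EGFR by slightly more than both SDs together. These SDs span constructs and treatments, so they hold the H2O2 changes and are not measurement error. With PBS, ERBB2 was close to EGFR, at 17.3 against 18.8 in vector and 17.6 against 19.1 CPM per kb in PAGE4 cells. With H2O2 it was at 9.14 against 25.1 and 7.37 against 24.2. HBEGF (6.90 ± 5.49), ERBB3 (5.44 ± 2.25) and TGFA (5.09 ± 1.44) followed, and no neighbours from ERBB2 to TGFA differed in that sense. In DU145 vector cells, HBEGF was below ERBB3 with PBS (1.94 against 7.74) and above it with H2O2 (12.1 against 3.93). BTC and ERBB4 came last, each below its upper neighbour by more than both SDs, at 1.39 ± 0.510 and 0.0363 ± 0.0242 CPM per kb.

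Most ligand genes and ERRFI1 rose with H2O2 in both lines. In 22RV1 cells 4 of 5 ligands rose and none fell, where 12.8% of all genes rose and 14.9% fell. In DU145 cells 3 of 5 rose and BTC fell, where 16.9% of all genes rose and 19.8% fell. HBEGF, a heparin-binding ligand that also binds ERBB4, was at 4.78, 19.3, 3.74 and 7.17 CPM in 22RV1 cells and at 5.80, 36.3, 7.11 and 33.3 CPM in DU145 cells. Its H2O2 libraries were above its PBS libraries in both lines, by 4.04-fold in vector and 1.92-fold in PAGE4 cells of 22RV1 and by 6.25-fold and 4.68-fold in DU145. The fitted log2 change was 1.53 (SE 0.214, adjusted p = 3.89e-05) in 22RV1 cells and 2.43 (SE 0.208, adjusted p = 1.02e-07) in DU145 cells. AREG rose in 22RV1 cells, 5.97-fold in vector and 11.02-fold in PAGE4 cells, from counts of 82 to 426 and of 23 to 179 (log2 change 2.86, SE 0.169, adjusted p = 1.95e-09). In DU145 cells AREG counts were 4527, 4688, 4869 and 4765, and the log2 change of 0.13 (SE 0.0993) did not pass the test (adjusted p = 0.332).

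EREG rose in DU145 cells from 114.8 to 236 CPM in vector cells and from 112 to 214 CPM in PAGE4 cells (log2 change 0.99, SE 0.0882, adjusted p = 1.57e-07). In 22RV1 cells its counts of 5, 16, 8 and 12 gave a log2 change of 1.44 (SE 0.406, adjusted p = 0.0134). That call rested on few reads and was lost without the vector pair (log2 change 1.06), with adjusted p from 0.00708 to 0.302 over the alternatives. TGFA rose in both lines, from 3.28 to 7.02 and 2.87 to 6.46 CPM in 22RV1 cells (log2 change 1.13, SE 0.167, adjusted p = 6.77e-05) and from 16.9 to 26.99 and 22.6 to 33.7 CPM in DU145 cells (log2 change 0.63, SE 0.143, adjusted p = 0.00211). BTC, which binds EGFR and ERBB4, was at 4.55, 3.33, 2.82 and 3.50 CPM in 22RV1 cells, where it did not pass the test (adjusted p = 0.855), and fell in DU145 cells from 4.85 to 2.61 and from 4.86 to 2.43 CPM (log2 change -0.95, SE 0.280, adjusted p = 0.0125). The DU145 calls of TGFA and BTC were lost when either DU145 pair was left out, with log2 changes of 0.68 and 0.57 for TGFA and -0.90 and -1.001 for BTC, and that of BTC also in the Wald test. Over the alternatives, their adjusted p reached 0.0905 and 0.123.

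ERRFI1 was at 45.0, 127, 37.9 and 65.0 CPM in 22RV1 cells and at 132, 242, 151 and 273 CPM in DU145 cells. It rose 2.83-fold and 1.72-fold with H2O2 in the vector and PAGE4 cells of 22RV1 and 1.83-fold and 1.81-fold in those of DU145. The fitted log2 change was 1.15 (SE 0.121, adjusted p = 1.79e-06) in 22RV1 cells and 0.86 (SE 0.116, adjusted p = 1.49e-05) in DU145 cells.

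**Figure D2:**
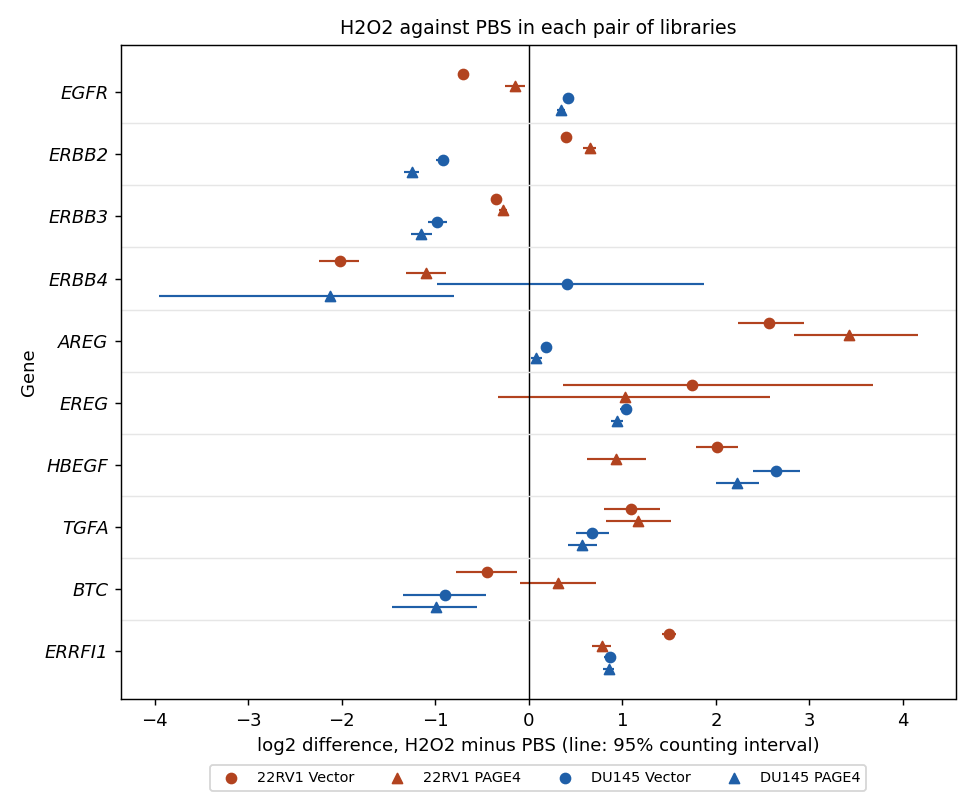
Difference between H2O2 and PBS libraries on the log2 scale for each gene in each of the 4 pairs of libraries, with 22RV1 in orange, DU145 in blue, circles for vector and triangles for PAGE4, and lines for the 95% interval of counting error alone. AREG, EREG, HBEGF, TGFA and ERRFI1 lie to the right of 0 in all 4 pairs, AREG only narrowly in the DU145 pairs (0.19 and 0.08). The EREG interval of the 22RV1 PAGE4 pair includes 0. ERBB2 lies right of 0 in 22RV1 and left of 0 in DU145 pairs.

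Among the receptors, ERBB2 moved in opposite directions in the lines. ERBB2 was at 104, 137, 80.5 and 126 CPM in 22RV1 cells and at 178.7, 94.4, 182 and 76.1 CPM in DU145 cells, so that it rose with H2O2 in 22RV1 cells (log2 change 0.52, SE 0.0949, adjusted p = 0.000473) and fell in DU145 cells (-1.09, SE 0.0965, adjusted p = 1.51e-07). The treatment groups did not overlap in either line. ERBB3 fell in both lines, with log2 changes of -0.32 in 22RV1 cells (SE 0.0792, adjusted p = 0.00601) and -1.06 in DU145 cells (SE 0.0849, adjusted p = 4.79e-08). The 22RV1 call of ERBB3 was lost under total-count scaling and when only the cell line was blocked, where log2 changes were -0.19 and -0.31 and adjusted p reached 0.246. ERBB4 fell in 22RV1 cells from 23.6 to 5.80 CPM in vector cells and from 18.5 to 8.62 CPM in PAGE4 cells (log2 change -1.56, SE 0.253, adjusted p = 0.000161). DESeq2's Wald test gave ERBB4 a like change of -1.57 that did not pass (adjusted p = 0.108, the highest over the alternatives, whose lowest was 8.78e-14). In DU145 cells, its counts of 9, 11, 25 and 5 gave no call (adjusted p = 0.237). Without the DU145 vector pair, the remaining ERBB4 pair of 25 and 5 reads passed (log2 change -2.19).

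EGFR also moved in opposite directions. In 22RV1 cells it was lower with H2O2 in both pairs, by 0.70 (log2) in vector cells and by 0.15 in PAGE4 cells (fitted log2 change -0.44, SE 0.102, adjusted p = 0.00326). In DU145 cells it was higher in both, by 0.41 and 0.35 (fitted 0.38, SE 0.0978, adjusted p = 0.00508). The 22RV1 call was lost without the vector pair (-0.16) and the DU145 call without the DU145 vector pair (0.35), and both were lost when the fit blocked on the cell line alone, with adjusted p up to 0.545 and 0.680. Over the whole family, 6 of 10 members rose and 3 fell in 22RV1 cells, and 5 rose and 3 fell in DU145 cells, against the shares of all genes given above. The median log2 change was 0.83 over the members and 0.00 over all genes in 22RV1 cells, and 0.26 and -0.03 in DU145 cells. As the members were chosen with earlier results known, these counts and medians are no test of the family. With total counts in place of TMM, 64.4% of the genes called in 22RV1 cells were higher, against 46.1%. The 5 markers of 22RV1 cells summed to 410.1 and 379 CPM with PBS and to 158.5 and 173 CPM with H2O2 in that line, and the part of this difference in the family's values was not tested.

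The H2O2 effect itself was compared between the lines in the same fit, and 5 of 10 members differed, against 16.3% of all genes. AREG (22RV1 minus DU145, log2 2.72, SE 0.198, adjusted p = 6.69e-08), ERBB2 (1.61, SE 0.135, adjusted p = 3.16e-07) and ERBB3 (0.75, SE 0.116, adjusted p = 0.000246) responded more upward or less downward in 22RV1 cells. EGFR (-0.82, SE 0.141, adjusted p = 0.000605) and HBEGF (-0.90, SE 0.295, adjusted p = 0.0447) differed the other way. The HBEGF difference was lost with total counts (-0.84), in the Wald test (-0.97), with a block for the cell line only (-0.79), without the 22RV1 PAGE4 pair (-0.47) and without the DU145 vector pair (-0.72), with adjusted p up to 0.409. The EGFR and ERBB3 differences were lost under that last block (-0.96 and 0.75), with adjusted p up to 0.538 and 0.0984. ERBB4, EREG, TGFA, BTC and ERRFI1 did not pass this test, although ERRFI1 did without the 22RV1 PAGE4 pair (0.59) and BTC did without the 22RV1 vector pair (1.21).

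PAGE4 is a disordered protein of the prostate, and the study asked what its expression changes in oxidatively stressed cells. In 22RV1 cells, EGFR was lower with PAGE4 in both treatments, 4.39-fold with PBS (8937 against 1829 reads) and 3.002-fold with H2O2 (4782 against 1163 reads). On the log2 scale the EGFR differences were -2.14 (95% counting interval -2.21 to -2.06) and -1.59 (-1.68 to -1.49), and these are the values known when the members were chosen. AREG was also lower in both pairs, by 1.65 (interval -2.42 to -0.999) with PBS and by 0.80 (-1.06 to -0.54) with H2O2, on the log2 scale. HBEGF and ERRFI1 differed more between the H2O2 libraries than between the PBS libraries, by -1.43 (-1.66 to -1.20) and -0.97 (-1.05 to -0.89), against -0.35 and -0.25 with PBS. ERBB3 was higher with PAGE4 in both pairs, by 0.38 and 0.46. The sign of the ERBB4 difference changed with treatment, from -0.35 with PBS to 0.57 with H2O2.

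The study's limit of a 1.5-fold difference was applied to genes with a mean normalised count of at least 10 in the line. In 22RV1 cells 9 members reach this mean, EREG being below it. With PBS, EGFR, AREG and BTC were lower in PAGE4 cells and no member was higher, 3 of 9. Among all genes, 18.0% passed that limit in either direction. With H2O2, EGFR, AREG, HBEGF and ERRFI1 were lower, 4 of 9, where 21.6% of all genes passed in either direction. EGFR is in both counts, and its low value was known when the members were chosen. Neither count can therefore serve as a test against the share of all genes. BTC was at -0.69 (-1.04 to -0.35) with PBS and 0.07 (-0.32 to 0.46) with H2O2. TGFA was at -0.19 and -0.12, with intervals that include 0, and ERBB2 at -0.37 and -0.12. As each pair is 2 libraries, these intervals cover counting error only.

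**Figure D3:**
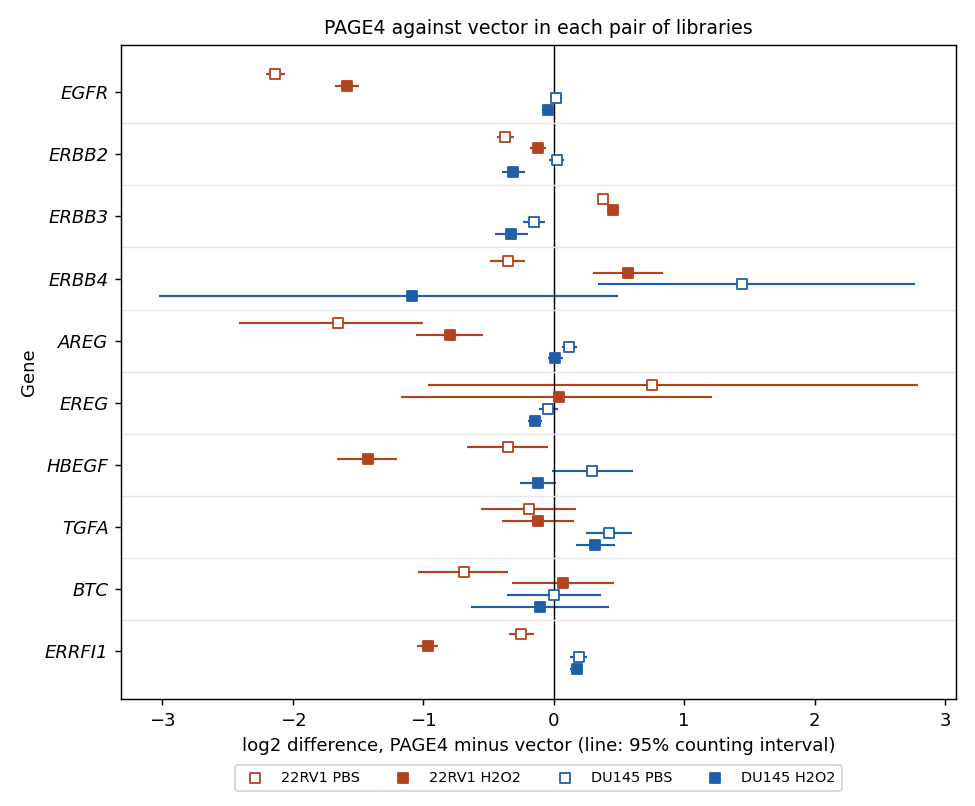
Difference between PAGE4 and vector libraries on the log2 scale for each gene in each of the 4 pairs, with 22RV1 in orange, DU145 in blue, open squares for PBS and filled squares for H2O2, and lines for the 95% interval of counting error alone. EGFR lies at -2.14 and -1.59 in 22RV1 pairs and at 0.02 and -0.05 in DU145 pairs.

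In DU145 cells, EGFR was at 8220 reads with vector and 8251 with PAGE4 under PBS, and at 9961 and 9712 reads under H2O2. The fitted EGFR difference was -0.01 on the log2 scale (SE 0.0977, adjusted p = 1). No member of 10 passed the edgeR test of PAGE4 in DU145 cells, where 0.170% of all genes did, and DESeq2's Wald test also called 0 members. At an unadjusted p under 0.05 there were 2, ERBB3 at -0.23 (SE 0.0843, adjusted p = 0.464) and TGFA at 0.37 (SE 0.143, adjusted p = 0.534). By the 1.5-fold limit 1 of 10 members was higher with PBS and 1 was lower with H2O2, where 17.0% and 17.1% of all genes passed in either direction. Both were ERBB4, with 25 reads against 9 and 5 reads against 11.

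Ratios of 2 genes of a library do not depend on library scaling, but their size per kilobase depends on the exon lengths used. The EGFR to ERBB3 ratio, per kilobase of exon, was 0.615, 0.484, 0.108 and 0.118 in 22RV1 cells and 2.43, 6.38, 2.74 and 7.74 in DU145 cells. With these lengths, ERBB3 RNA was the more abundant in every 22RV1 library and EGFR RNA in every DU145 library. The ERRFI1 to EGFR ratio was 0.856, 3.93, 3.17 and 6.04 in 22RV1 cells and 1.68, 2.31, 1.90 and 2.69 in DU145 cells, higher with H2O2 in each of the 4 pairs. The ERBB2 to EGFR ratio rose from 0.802 to 1.72 and from 2.72 to 4.75 with H2O2 in 22RV1 cells and fell from 0.920 to 0.365 and from 0.922 to 0.304 in DU145 cells.

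**Figure D4:**
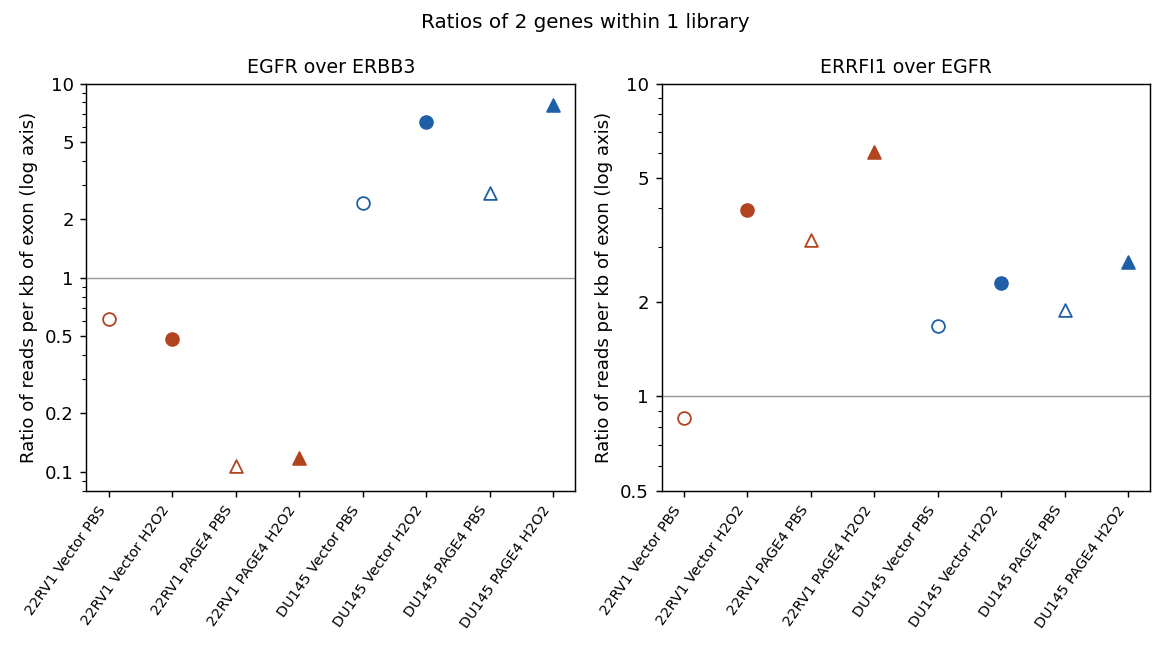
Ratio of EGFR to ERBB3 (left) and of ERRFI1 to EGFR (right) in reads per kilobase of exon within each of the 8 libraries, on log axes with a line at 1, with colours and symbols for line, construct and treatment. EGFR over ERBB3 is below 1 in the 22RV1 libraries and above 1 in the DU145 libraries, and ERRFI1 over EGFR is below 1 only in 22RV1 vector cells with PBS, at 0.856.

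Beyond the 10 members, 26 pathway genes were counted together, covering other ligands, ligand release, adaptors and negative regulators. In 22RV1 cells 7 of 26 rose with H2O2 and 3 fell, against 12.8% and 14.9% of all genes, with a median log2 change of 0.23 against 0.00. In DU145 cells 6 rose and 7 fell, against 16.9% and 19.8%, with a median of 0.00 against -0.03. ADAM17, the protease that releases AREG, HBEGF and TGFA, rose in 22RV1 cells from 29.1 to 52.7 and from 28.2 to 44.5 CPM (log2 change 0.76, SE 0.100, adjusted p = 2.17e-05). The others named there are the ligand gene NRG3 (log2 change -1.72, adjusted p = 0.00987) and the adaptors GAB1 (-0.58, adjusted p = 0.0213) and SOS2 (0.31, adjusted p = 0.0232). In DU145 cells the lowest adjusted p were those of ADAM10, another releasing protease (-0.71, adjusted p = 8.59e-06), RHBDF2, which carries ADAM17 to the cell surface (-0.84, adjusted p = 6.99e-05), the adaptor SHC1 (-0.44, adjusted p = 0.000148) and RNF41, a ubiquitin ligase of ERBB3 (0.44, adjusted p = 0.000583).

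The H2O2 effect differed between the lines for 8 of the 26, against 16.3% of all genes. These 8 included all 4 genes of ligand release, of which ADAM17 and RHBDF1 are named after their values were seen. Calls of pathway genes were not checked under the alternatives, unlike those of the members. The signed log2 change in 22RV1 cells minus that in DU145 cells was 0.77 for ADAM10 (adjusted p = 0.000470), 0.47 for ADAM17 (adjusted p = 0.0282), 0.72 for RHBDF1 (adjusted p = 0.00598) and 1.15 for RHBDF2 (adjusted p = 0.000438). ADAM10, RHBDF1 and RHBDF2 fell in DU145 cells and were not called in 22RV1 cells, whereas ADAM17 rose in both lines. ADAM10 was at 79.3, 79.2, 65.5 and 71.7 CPM in 22RV1 cells and at 181, 100.4, 153.5 and 103.5 CPM in DU145 cells. SHC1 (0.52, adjusted p = 0.00273) and LRIG3, a membrane protein (-0.95, adjusted p = 0.00310), completed the 4 lowest adjusted p with ADAM10 and RHBDF2. Between the lines, 3 of the 26 were higher and 15 were lower in 22RV1 cells, against 31.9% and 28.5% of all genes (median log2 difference -0.65 against 0.08). The lowest adjusted p were those of SHC1 (-2.48, adjusted p = 2.63e-06), SOCS5 (-1.47, adjusted p = 5.03e-05), RHBDF1 (1.73, adjusted p = 6.57e-05) and the ligand gene NRG4 (-3.88, adjusted p = 7.19e-05). With PAGE4 in DU145 cells, edgeR called 0 of the 26, against 0.170% of all genes, and 3 had an unadjusted p under 0.05.

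The genes whose log2 CPM followed that of EGFR most closely over the 8 libraries, among 12970 genes, were ZNRF3 (Pearson r = 0.989), KCNG1 (0.980), EPHB2 (0.979), COL6A2 (0.969) and FAM126A (0.966). KCNG1 was at 1.77, 1.96, 0.0748 and 0.0707 CPM in 22RV1 cells and between 16.5 and 21.1 CPM in DU145 cells. For AREG they were ZNF333 (0.999), LMCD1 (0.997), ABCA13 (0.997), C1GALT1 (0.994) and ARHGAP22 (0.994). LMCD1 was at 0.247, 1.26, 0.0748 and 0.601 CPM in 22RV1 cells and between 10.9 and 17.9 CPM in DU145 cells. The 8 points of each correlation fall into the 2 cell lines and share their libraries and constructs, so the values describe likeness in these libraries and carry no test.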

How the data were processed

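RNA of 8 libraries was measured, 1 per condition. Per the labels, the authors aligned reads with HISAT2 2.1.0 on GRCh38. The deposited tables, 1 for each line, hold unnormalized counts made with featureCounts 1.6.0. The annotation and the strand setting are not given in the sources used here, so reads in exon bases shared with other genes (186 bases of EGFR with EGFR-AS1, 715 of ERBB2 with PGAP3 and MIEN1, 155 of ERRFI1 and 31 of ERBB3) cannot be assigned to a strand. Of the symbols, 26 had been turned into dates and were kept as written.

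Counts were fitted with edgeR 4.0.16 (R 4.3.3; TMM, filterByExpr, quasi-likelihood test, Benjamini-Hochberg limit 0.05 over 22418 genes). The H2O2 fit had each line and construct as a block and an H2O2 term per line, with 2 residual degrees of freedom. The line fit had each construct and treatment as a block, with 3, and the PAGE4 fit each line and treatment. Differences between 2 libraries used a pseudocount of 0.5 normalized counts and exact 95% binomial (Clopper-Pearson) intervals, which cover counting error only. Exon lengths, which merge all annotated exons of a gene, and coordinates are those of GENCODE release 44.

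The members and all lists were chosen with earlier results of these data known, so no count or median of a list beside all genes is a test of it. Of the 22RV1 markers listed at the start, 2 are not reported here and are left out of the sums. All 10 members are named. Pathway genes are named where they passed a test, at most the 4 with the lowest adjusted p per test (ADAM17 and RHBDF1 were added for the difference between the lines after their values were seen), and likeness names the 5 highest Pearson correlations for EGFR and AREG among genes with a mean count of at least 100.

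On simulated data with 200 of 22418 genes changed 4-fold, 167 were recovered for H2O2 in DU145 cells (4 false calls), 192 between the lines (5) and 166 for PAGE4 in DU145 cells (5). The simulated libraries were independent, had the same spread for every gene and held no other changed genes. Smaller changes were not simulated, so these counts check the code and do not give the error rate of the calls. The alternatives were DESeq2 1.42.0 size factors and Wald test, total counts, no filter, a block for the line only, each pair left out, and a pseudocount of 5.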

Additional observations from a re-analysis of the deposited data

Results flagged for a closer look

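The H2O2 effect of 5 members differed between 22RV1 and DU145 cells in a test of the difference itself, edgeR's quasi-likelihood test of the 2 H2O2 terms with Benjamini-Hochberg adjustment. The difference, 22RV1 minus DU145 on the log2 scale, was 2.72 for AREG, 1.61 for ERBB2, 0.75 for ERBB3, -0.82 for EGFR and -0.90 for HBEGF. AREG rose in both 22RV1 pairs against a DU145 level that was already high with PBS. ERBB2 and EGFR had opposite signs in 22RV1 and DU145 cells, with both pairs of a line alike in sign. They were not alike in size for EGFR in 22RV1 cells, at -0.70 in vector and -0.15 in PAGE4 cells. As given above, the differences of EGFR, ERBB3 and HBEGF between the lines were lost under some alternatives.

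For 5 members, both PAGE4 pairs of 22RV1 cells differed one way and both pairs of DU145 cells the other way. These differences were not tested. As the mean of 2 pairs in 22RV1 minus the mean of 2 pairs in DU145, they were 0.66 for ERBB3, -1.29 for AREG, 0.49 for EREG, -0.53 for TGFA and -0.79 for ERRFI1 on the log2 scale. For EREG and TGFA, the counting intervals of both 22RV1 pairs include 0, and EREG had 5 to 16 reads per 22RV1 library. In DU145 cells, the interval also includes 0 for AREG with H2O2 (0.01, -0.05 to 0.07) and for EREG with PBS (-0.04, -0.11 to 0.03).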

How the results depend on the processing

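No member changed direction among called values under the alternatives run, where 466 values of single members kept their call (or, where untested, moved by less than the counting interval), 20 lost it and 3 gained it. The cause was not tested. With a block for the cell line only, the genes called fell from 6210 to 3855 for H2O2 in 22RV1 cells and from 3655 to 1533 for the difference between the lines, with 2 in place of 5 members called. For PAGE4 in DU145 cells, 38 genes became 62 with DESeq2 size factors, 63 with total counts and 217 with no filter, with 0 members called throughout. Leaving out each pair in turn gave 3702 to 6113 genes for H2O2 in 22RV1 cells (fewest without the 22RV1 vector pair), 5143 to 9326 against 8225 in DU145 cells (fewest without the DU145 PAGE4 pair, then 5327 without the DU145 vector pair), 2121 to 4252 for the difference (fewest without the DU145 PAGE4 pair, then 2320 without the DU145 vector pair) and 15 to 390 for PAGE4 in DU145 cells (15 without the DU145 PBS pair, 390 and 385 without the 22RV1 PBS and H2O2 pairs). Members called ranged from 7 to 9, 6 to 8 and 4 to 6 in the H2O2 tests, and were 0 for PAGE4 and 8 between the lines in each. A fit without a pair of a line leaves that line 1 pair, whose spread is assumed to be that of the other line. Total counts moved the median log2 change of all genes from 0.00 to 0.12 for H2O2 in 22RV1 cells and from 0.08 to 0.28 between the lines. All 80 values of single members between the lines kept their call, and those of ERBB2 and BTC, which were not called, changed sign in some. The labels carry no replicate numbers, so no block by replicate was added to the blocks of the fits. A pseudocount of 5 was not run for levels, which have no pseudocount. Counts under about 25 reads, as for EREG in 22RV1 and ERBB4 in DU145 cells, limit what this depth can show.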
